A study of Prunus dulcis with 36 samples.

Results

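The unigenes described here are those with a peak at 17 days after flowering (DAF) over both neighbouring stages in abnormal almond fruits. They were chosen from the measured values: the mean over the 12 groups had to be at least 10 FPKM (fragments scaled to transcript length and library size), and log2(FPKM + 1) in abnormal fruits at 17 DAF had to be more than 2 above both 12 and 22 DAF in abnormal fruits. Of the 8676 unigenes listed in the deposited columns, 2309 had a mean of at least 10 FPKM and 107 of these met the rule. The rule also left out unigenes that the text of the paper names by ID, but 0 of those 18 had the required values, so none was lost. The peak itself is therefore not a finding, and the values that define it are given as a description.

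The samples were fruitlets of the cultivar 'ZhiPi', normal or abnormal, at 12, 17, 22, 27, 32 and 37 DAF. This gave 12 groups with 3 replicates each, 36 samples in all, which according to the methods came from 3 independent trees. Abnormal fruits were atrophied fruits picked from the same branches as the normal ones, and several fruits were cut up and mixed per replicate, so each value mixes the tissues of the fruit. The labels name no treatment. The deposited columns hold 1 value per unigene and group, the authors' mean FPKM over the replicates. No spread between replicates and no test is therefore available, and everything said about 17 DAF in abnormal fruits rests on 1 column. The number of reads behind an FPKM value is unknown.

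Young almond fruits depend on sugars imported from the tree, and they compete for these with the growing shoots. Fruitlets that stop growing are shed at an abscission zone, where cell wall pectin is degraded by enzymes such as polygalacturonases. Hormones, calcium signals and transcription factors of families such as WRKY and C2H2 zinc fingers take part in these steps in model plants. In bulk fruit tissue, a change in the share of a cell type and a change in RNA per cell cannot be told apart.

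Names were found for few of the 107 unigenes. The annotation entries used here cover 18 of them, from Swiss-Prot or the primer list for 9. For 3 there was a Pfam domain but no Swiss-Prot name, and for 6 a protein database title alone. The other 89 are given by assembly ID. IDs are those of the authors' own assembly and carry no chromosome position here, and 0 of the listed IDs matched the RefSeq gene table of the almond assembly ALMONDv2. The 107 come from 107 different assembly clusters. A check of the fruit tissue against marker genes was not made, since too few unigenes carry names.

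For 1 member, a designed oligo gives a stretch of its sequence. The glycosyl hydrolase family 28 unigene DN20503_c0_g2 was among the unigenes with RT-qPCR primers, and its forward primer, shown 5′ to 3′ because it is the sequence that ties this ID to a transcript, reads as follows.
DN20503_c0_g2 forward primer: agtgaaagcaaatggcaaac

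In abnormal fruits, the median of the 107 unigenes was 13.2 FPKM at 12 DAF, 131 FPKM at 17 DAF and 13.2 FPKM at 22 DAF. It then stood at 74.4, 54.7 and 31.4 FPKM at the last 3 stages. The rule sets 17 DAF above 12 and 22 DAF in abnormal fruits, and it does not compare 17 DAF with the later stages or with normal fruits. In normal fruits the medians were 3.46, 3.83, 16.5, 48.0, 38 and 19.4 FPKM over the 6 stages. By these medians of the deposited values, normal fruits were low at both 12 and 17 DAF and highest at 27 DAF. Whether 27 DAF stays above 32 DAF under another scaling of the columns was not tested. A scale factor taken over the unigenes above 0 in all groups was 1.41 for the normal column at 27 DAF and 1.03 at 32 DAF. For the 2309 unigenes that reached the minimum of 10 FPKM, the medians stayed between 25.9 and 42.4 FPKM in all 12 groups. The 107 unigenes together made up 18.4% of the summed FPKM of the 8676 listed unigenes in the abnormal column at 17 DAF. Their share of the normal columns was 0.709% at that stage and 6.75% at 27 DAF. The listed unigenes are only a part of the authors' assembly. The abnormal value at 17 DAF was chosen to be high, so the 18.4% is a description. The highest member supplied 8841 of the 45500 FPKM behind it. Of the 107, 59 had the highest of their 12 values at 17 DAF in abnormal fruits and 28 at 27 DAF in abnormal fruits, where 11.7% and 11.5% of the 2309 had theirs.

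**Figure D1:**
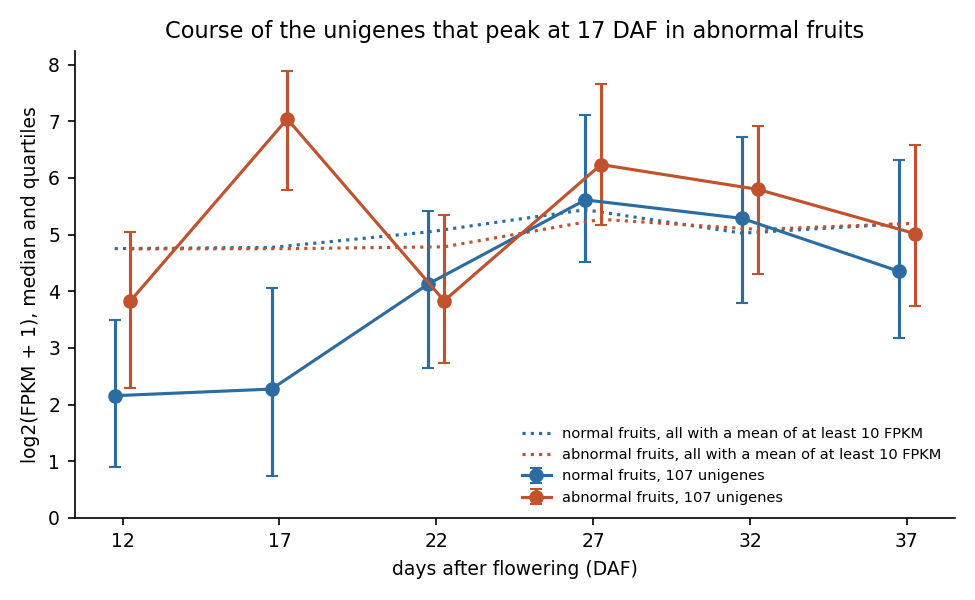
Median log2(FPKM + 1) of the 107 unigenes (points, with quartiles as bars) in normal and abnormal fruits against days after flowering. Dotted lines are the medians of the 2309 unigenes that reached the minimum of 10 FPKM. Abnormal fruits stand at 7.04 at 17 DAF, where normal fruits stand at 2.27, and at 27 DAF the medians are 6.24 and 5.61.

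Among the annotated members, 2 encode transcription factors. WRKY75 (DN26011_c0_g2), whose Arabidopsis namesake acts in phosphate starvation and leaf senescence, had 16.5, 285, 46.2, 65.0, 216 and 7.85 FPKM in abnormal fruits over the 6 stages. In normal fruits it had 1.19 FPKM at 12 DAF, was listed at 0 at 17 DAF, and had 23.7, 29.4, 106 and 4.27 FPKM at 22, 27, 32 and 37 DAF. Both fruit types were high at 32 DAF and low at 37 DAF, and only abnormal fruits were high at 17 DAF. ZAT5 (DN14998_c0_g1), a C2H2 zinc finger protein, had 20.1, 153, 8.96, 186, 54.7 and 64.5 FPKM in abnormal and 3.99, 7.06, 6.67, 99.2, 38 and 43.7 FPKM in normal fruits. Its highest value lay at 27 DAF in either fruit type, and the difference between fruit types in log2(FPKM + 1) was 4.25 at 17 DAF.

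Calcium binding was represented by a pair of unigenes. CML44 (DN13459_c0_g1), a calmodulin-like protein, was listed at 0 in normal fruits at 12 and 17 DAF and had 1.86, 56.4, 4.60 and 2.76 FPKM at 22, 27, 32 and 37 DAF. In abnormal fruits it had 2.80, 42.8, 5.34, 105, 8.02 and 6.84 FPKM over the 6 stages. It was thus present at 1 stage in normal fruits and at 2 stages, 17 and 27 DAF, in abnormal fruits, if levels near 10 FPKM or below are set aside. DN16379_c0_g1, with a C2 domain, a fold that often binds membranes in the presence of calcium, had 3.87, 80.2, 9.43, 55.7, 43.4 and 23.5 FPKM in abnormal and 1.56, 2.28, 8.92, 36.9, 22.2 and 15 FPKM in normal fruits.

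Transport across membranes was represented by 2 members. SWEET12 (DN25084_c2_g5) belongs to the sugar efflux transporters, which in Arabidopsis leaves release sucrose for phloem loading. It was listed at 0 in normal fruits at 12 and 17 DAF and had 5.29, 43.4, 8.20 and 10.7 FPKM at the later stages. In abnormal fruits it had 0.627, 32.1, 5.81, 67.4, 10.3 and 16.1 FPKM. As for CML44, its highest value lay at 27 DAF in both fruit types, and 17 DAF came next in abnormal fruits. The WAT1-related unigene DN15597_c0_g1, of a family named after an Arabidopsis vacuolar auxin transporter, had 6.93, 48.1, 2.40, 35.7, 22.2 and 5.04 FPKM in abnormal fruits. In normal fruits it had 0.532 FPKM at 12 DAF, was listed at 0 at 17 DAF, and had 2.86, 21.1, 12.1 and 3.26 FPKM afterwards.

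The glycosyl hydrolase family 28 unigene (DN20503_c0_g2, the one with the primer printed above) belongs to the family of polygalacturonases, which cut pectin. In abnormal fruits it had 0.117, 53.1, 10.6, 1.09, 11.2 and 32.3 FPKM, and in normal fruits 0.778, 1.03, 5.95, 2.42, 56.0 and 16.6 FPKM. Its peak in normal fruits came at 32 DAF and was about as high as that at 17 DAF in abnormal fruits, but unlike ZAT5, CML44 and SWEET12 it was low at 27 DAF in both. AOP1 (DN15629_c0_g1), of the dioxygenases that use iron and 2-oxoglutarate, had 33.8, 151, 26.4, 65.2, 186 and 15.5 FPKM in abnormal and 18.6, 3.78, 18.2, 35.7, 95.6 and 11.6 FPKM in normal fruits. Like WRKY75, it was high at 17 and 32 DAF in abnormal fruits and at 32 DAF in normal fruits.

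Protein turnover was represented by PUB26 (DN16780_c0_g1), a U-box ubiquitin ligase, and by an F-box protein with an FBD domain (DN24687_c0_g1), of the class that selects substrates for ubiquitination. PUB26 had 8.34, 66.3, 15.5, 74.4, 60.3 and 21.1 FPKM in abnormal and 20.7, 20.3, 13.7, 40.1, 36.3 and 12.8 FPKM in normal fruits. It was 1 of the 5 members that at 12 DAF had the lower value in abnormal fruits, by over 1 in log2(FPKM + 1). The F-box unigene had 63.4, 333, 52.6, 245, 148 and 91.1 FPKM in abnormal and 35.5, 33.0, 64.1, 180, 103 and 83.5 FPKM in normal fruits, so that it was expressed at 30 FPKM or more in every group. The 9 unigenes with such names differ in their later course and share the high value at 17 DAF, for which they were chosen.

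**Figure D2:**
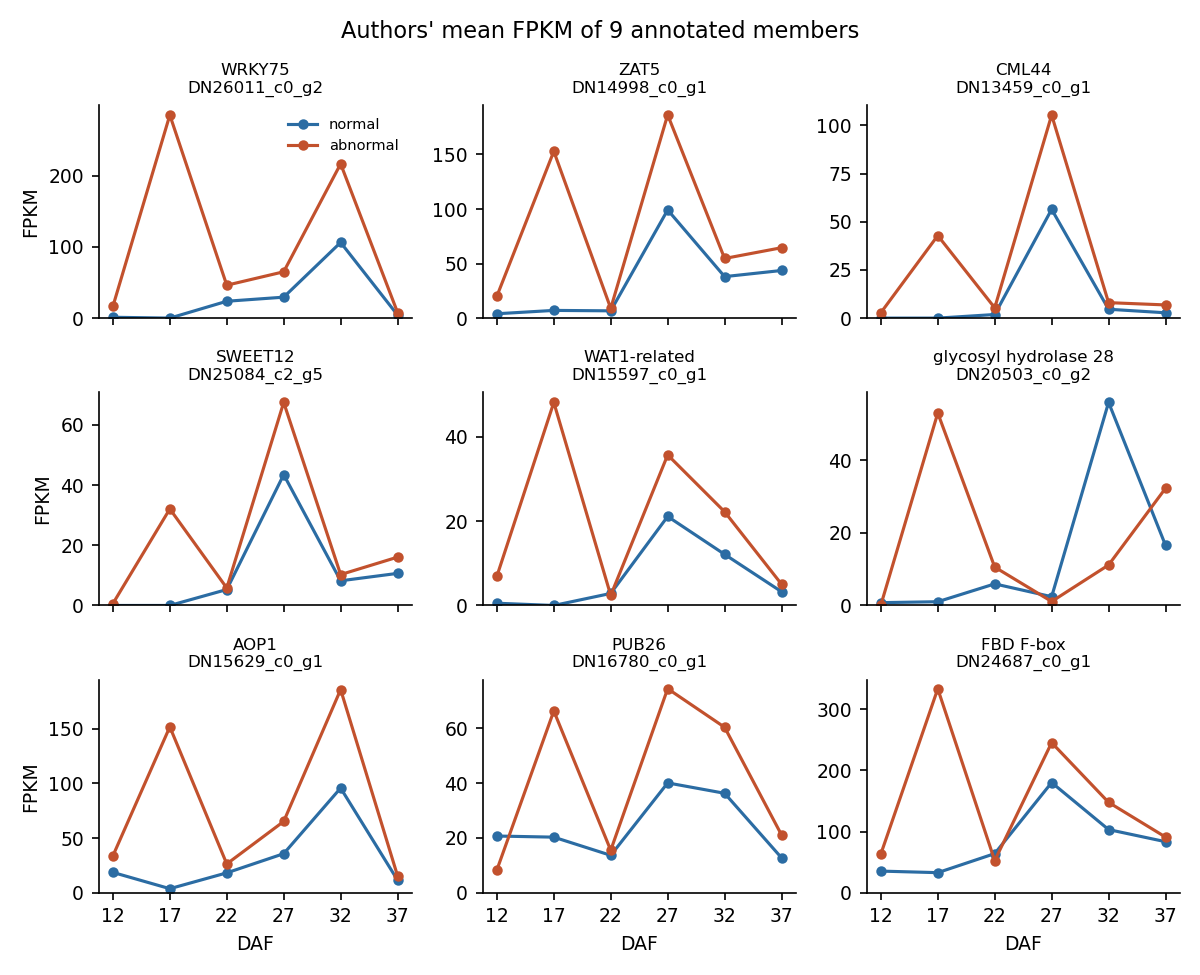
Authors' mean FPKM (linear axes, each panel with its own scale) against days after flowering for the 9 members with a Swiss-Prot or primer list name, in normal and abnormal fruits. WRKY75, with 285 FPKM in abnormal and a listed 0 in normal fruits at 17 DAF, and AOP1 are high again at 32 DAF, while CML44, ZAT5 and SWEET12 are highest at 27 DAF.

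Less is known of the members with a Pfam domain but no Swiss-Prot name, or with a database title alone. DN16014_c0_g1, with a domain of an NADH dehydrogenase transmembrane subunit, had 3.92, 58.9, 13.2, 48.7, 10.5 and 14.4 FPKM in abnormal fruits, and DN15865_c0_g1, with the domain of unknown function DUF1677, had 2.67, 15.2, 2.52, 45.1, 56.5 and 28.5 FPKM. The latter was among the members whose later values exceeded that at 17 DAF. The 6 others match uncharacterized or hypothetical proteins of Prunus persica (peach) or Prunus mume, and in abnormal fruits at 17 DAF they ran from 43.2 FPKM (DN10615_c0_g1) to 335 FPKM (DN13287_c0_g1). DN13287_c0_g1 had 58.4, 335, 81.2, 133, 358 and 12.7 FPKM in abnormal and 37.9, 10.1, 40.7, 66.5, 167 and 5.55 FPKM in normal fruits, again with 32 DAF as the later high stage.

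Word lists for 15 functions were applied to the 178 named unigenes past the minimum of 10 FPKM. Of these 178, 18 (10.1%) were members, and the shares to set beside the counts at 17 DAF are 29.9% higher and 32.6% lower among the 2309 unigenes. Transcription factors had 14 entries, of which 7 were higher and 3 lower by more than 1 in log2(FPKM + 1) in abnormal than in normal fruits at 17 DAF, and 2 were members, WRKY75 and ZAT5. Transporters had 6 entries, 5 higher and 0 lower, with SWEET12 and the WAT1-related unigene as the 2 members. Cell wall words gave 4 entries (1 higher, 1 lower) with 1 member, and carbohydrate metabolism 8 (3 higher, 4 lower) with 1. Protein degradation gave 12 (4 higher, 6 lower) with 1, the F-box unigene (the words did not reach PUB26). The 10 remaining lists held between 2 and 7 entries each and no member. Heat shock proteins had 2 of 6 higher and 3 lower, and ribosome and translation 1 of 5 higher and 4 lower. Lipids and wax had 2 of 7 higher and 5 lower, and seed storage and oil body proteins 1 of 6 higher and 4 lower. Photosynthesis had 0 of 3 higher and 2 lower, and defence and stress 2 of 3 higher and 0 lower. Hormones (5 entries) and phenylpropanoids and flavonoids (4 entries) each had 1 higher and 1 lower. Redox and peroxidases (3 entries) and cell cycle and chromatin (2 entries) had 0 higher and 0 lower. These counts cover a small part of the unigenes, and no enrichment was computed from them.

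The highest values among the 107 belonged to unigenes without a name. DN20837_c0_g1 had 1394, 8841, 1315, 8275, 6089 and 4199 FPKM in abnormal and 160, 499, 2071, 5256, 7105 and 2851 FPKM in normal fruits from 12 to 37 DAF. DN17756_c0_g1 had 3758 FPKM at 17 DAF in abnormal and 53.9 FPKM in normal fruits, with 922 FPKM in normal fruits at 27 DAF. DN26343_c2_g2 had 3647 against 28 FPKM at 17 DAF and 1085 FPKM in normal fruits at 32 DAF. In each of these 3 the late normal level was far above the normal level at 17 DAF. DN24208_c0_g1 had 3168 against 16.2 FPKM at 17 DAF, and 1505 FPKM in normal fruits at 27 DAF. DN26812_c0_g6, like WRKY75 low at 37 DAF in both fruit types, had 352, 2638, 269, 496, 630 and 11.6 FPKM in abnormal and 1.98, 0.0733, 133, 253, 311 and 7.90 FPKM in normal fruits. Its difference between fruit types at 17 DAF, 11.26 in log2(FPKM + 1), was the largest of all members. DN33763_c0_g1 was next, with 431 FPKM in abnormal fruits and a listed 0 in normal fruits, which had 234 FPKM of it at 27 DAF.

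Between fruit types at 17 DAF, 106 of the 107 unigenes had the higher value in abnormal fruits, each by more than 1 on the log2(FPKM + 1) scale, and 0 were lower by that much. This difference shares the abnormal value with the rule, so nothing is read from it. Over the 2309 unigenes, 29.9% were higher and 32.6% lower. The member differences had a median of 4.63, and a median of 4.01 over the 83 members above 0 in both fruit types. The other 24 were listed at 0 in normal fruits at 17 DAF. The exception, DN23988_c0_g3, had 35.7 FPKM in normal fruits at 17 DAF against 32.3 FPKM in abnormal ones, and it was the 1 member with its highest normal value at that stage. After it, the smallest differences were those of DN23668_c2_g9 (1.39, from 15.7 against 42.8 FPKM) and PUB26 (1.66).

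In normal fruits, 2 of the 107 members, DN23988_c0_g3 and DN27219_c0_g1, were also more than 1 above both 12 and 22 DAF at 17 DAF, a share close to the 1.78% of the 2309 unigenes. DN27219_c0_g1 had 4.70, 14.1 and 4.17 FPKM at 12, 17 and 22 DAF in normal fruits and 13.2, 61.4 and 11.8 FPKM in abnormal fruits. Its peak was present in both fruit types and was the higher one in abnormal fruits.

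At 12 DAF, before the peak, 57 of the 107 unigenes were already higher in abnormal fruits by more than 1, and 5 were lower, against 19.7% and 19.3% of the 2309 unigenes. The median difference was 1.23, with median levels of 3.46 FPKM in normal fruits and 13.2 FPKM in abnormal ones. The rule asks for a low value at 12 DAF in abnormal fruits relative to 17 DAF and does not use normal fruits at 12 DAF other than through the mean. At 22 DAF, where the rule asks for a low abnormal value relative to 17 DAF, 10 members had a higher and 14 a lower value in abnormal fruits (3.33% and 8.19% of the 2309), with a median difference of 0.06. Since the abnormal values at 12 and 22 DAF entered the rule, these counts are a description.

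From 27 DAF onward the members were slightly higher in abnormal fruits, mostly by less than the threshold of 1. At 27 DAF, 92 of the 107 were higher by any amount (39.3% of the 2309) and 14 by more than 1, and 1 was lower by more than 1 (4.11% and 10.7% of the 2309). At 32 DAF 84 were higher by any amount (51.9%), 14 of them by more than 1 (3.9%), and 3 were lower by more than 1 (4.89%). At 37 DAF 87 were higher (49.2%), 10 of them by more than 1 (3.03%), and 0 were lower by more than 1 (2.69%). The median differences were 0.65, 0.62 and 0.42 at 27, 32 and 37 DAF, against −0.15, 0.02 and 0 over the 2309 unigenes. The count at 27 DAF depended on scaling: it was 40 once all columns had equal sums and 48 under median-of-ratios scaling. By median of ratios, a scale factor taken over the 3099 unigenes above 0 in all groups, abnormal fruits stood at −0.18, −0.28 and −0.29 in log2 against normal fruits at 17, 22 and 27 DAF.

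**Figure D3:**
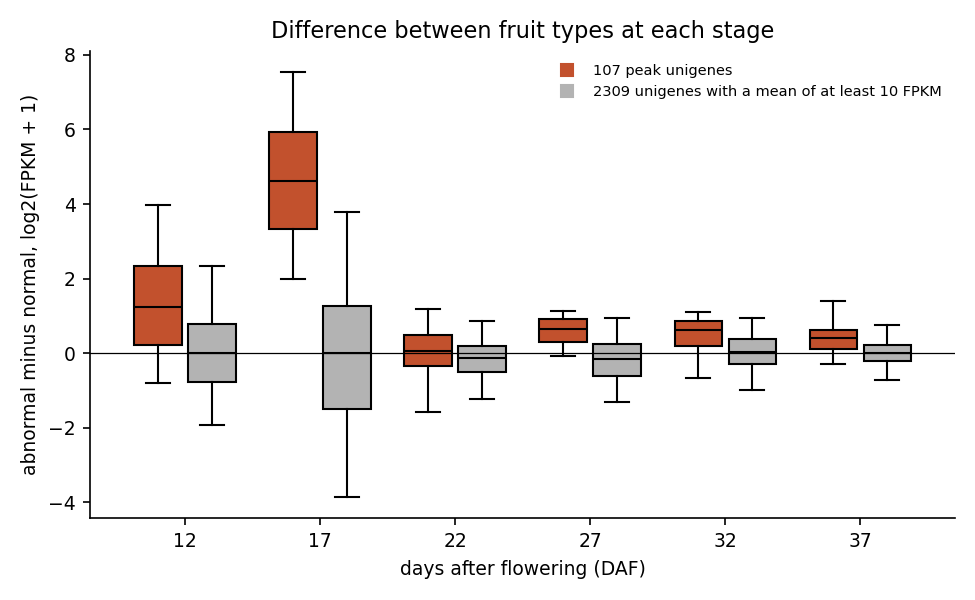
Difference between abnormal and normal fruits in log2(FPKM + 1) at each stage for the 107 unigenes and for the 2309 unigenes that reached the minimum. Boxes are quartiles with the median, and whiskers run from the 5th to the 95th percentile over unigenes. The first 3 medians of the 107 are 1.23, 4.63 and 0.06.

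For 72 of the 98 members above 0 in some normal group, the level at 17 DAF in abnormal fruits was above the highest normal level of any stage, against 19.1% of the 2288 unigenes past the minimum with such a value. The abnormal value at 17 DAF was chosen to be high, so this is a description. Of these 98, 64 had their highest normal value at 27, 23 at 32 and 8 at 37 DAF, with 1 each at 12, 17 and 22 DAF. Among the 2288 unigenes, 36.1%, 13.2% and 16.1% had it at 27, 32 and 37 DAF. The count of 64 depended on scaling: under median-of-ratios scaling it was 46, and the share over the 2288 was not recomputed. The scale factor of the normal column was 1.41 at 27 DAF, the largest of all columns, against 0.86 at 17 DAF and 1.03 at 32 DAF. Dependence of the count of 64 on the minimum of 10 FPKM was not tested. Abnormal fruits at 17 DAF lay within 1 in log2(FPKM + 1) of the highest normal group for 58 of the 98 members, more than 1 above it for 36 and more than 1 below it for 4, where the shares of the 2288 were 42.1%, 3.45% and 54.4%. The median of this difference was 0.69. DN28184_c3_g2 lay farthest below, with 499 FPKM in normal fruits at 12 DAF, a listed 0 at 17 DAF and, at that stage in abnormal fruits, 62.5 FPKM.

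**Figure D4:**
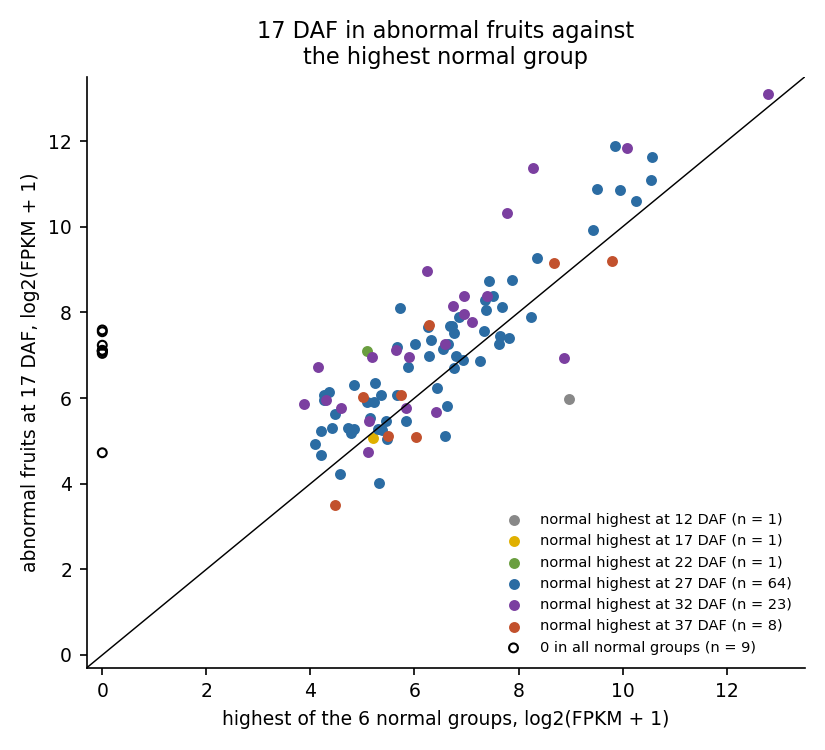
Log2(FPKM + 1) in abnormal fruits at 17 DAF against the highest of the 6 normal groups, 1 point per unigene, coloured by the normal stage with the highest value. The line marks equality. Of the 98 filled points 72 lie above the line, and the 9 open points were listed at 0 in all normal groups.

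In normal fruits most members moved by less than 1 from 12 to 17 DAF, 20 being higher and 9 lower by more than 1 (6.76% and 7.88% of the 2309). From 17 to 22 DAF 68 were higher and 2 lower (20.2% and 7.41%), and from 22 to 27 DAF 78 were higher and 3 lower (18.6% and 5.54%). In the deposited values the later steps went the other way more often, with 10 higher and 33 lower from 27 to 32 DAF (6.41% and 16.1%), and 10 higher and 32 lower from 32 to 37 DAF (9.05% and 9.18%). These steps between neighbouring stages were not recomputed under other scalings. The median step of the members from 27 to 32 DAF was −0.46. The median-of-ratios scale factor of the normal column was 1.41 at 27 DAF and 1.03 at 32 DAF, so a fall after 27 DAF is not read from these counts.

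Over the whole span, 91 of the 107 unigenes were more than 1 higher at 27 than at 17 DAF in normal fruits and 2 were lower, against 38.7% and 8.4% of the 2309. The corresponding step in abnormal fruits ran from 22 to 27 DAF. It was more than 1 upward for 89 of the 107 and downward for 3, against 26.7% and 11.1%. Both upward steps were shown by 85 members. How many of the 2309 showed both was not computed, so nothing is read from this count. The abnormal step starts from 22 DAF, a value that the rule asks to be low relative to 17 DAF, so its share is a description. The shares of the normal and of the abnormal step also depend on the minimum of 10 FPKM. A unigene that is low at 12 and 22 DAF can pass the minimum through 17 DAF or through its later values, and 91 of the 107 also averaged 10 FPKM or more across the other 11 groups. Without any minimum, 340 unigenes met the rise, and 44.4% and 45.3% of them showed the normal and the abnormal step, compared with 85.0% and 83.2% of the members and with 31.2% and 23.2% of all 8676 listed unigenes.

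The later maxima of both fruit types fell on the same stage for most members. Among the 98 with values above 0 at 27, 32 or 37 DAF in both fruit types, the highest of these 3 stages was the same in normal and abnormal fruits for 74, against 57.8% of the unigenes past the minimum. It was 27 DAF in both for 56, 32 DAF in both for 14 and 37 DAF in both for 4, against 30.2%, 9.24% and 18.4%. In abnormal fruits, the later maximum lay at 27 DAF for 65 of the 98, at 32 DAF for 22 and at 37 DAF for 11, where the shares over all unigenes past the minimum were 37%, 21.6% and 41.4%. The share at 32 DAF was thus near that over all unigenes. Counts of later maxima can depend on the minimum of 10 FPKM. A member low at 22 DAF can pass it through its later values. Whether the shares hold without the minimum was not tested, so they are a description. The 65 with 27 DAF had median levels of 139 FPKM at 17 DAF, 16.6 FPKM at 22 DAF and 120 FPKM at 27 DAF. ZAT5, CML44 and SWEET12 belong here. The 22 with 32 DAF had medians of 95, 14.1, 58.1, 70.7 and 15.3 FPKM from 17 to 37 DAF, WRKY75 and AOP1 among them. The 11 with 37 DAF had a median of 63.0 FPKM there and 63.7 FPKM at 17 DAF.

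Relative to 17 DAF, abnormal fruits at 37 DAF were lower by more than 1 for 75 of the 107 unigenes and higher by more than 1 for 4, where 13.3% and 34.7% of the 2309 were. Since the rule selects a high value at 17 DAF, this is a description. The largest later values relative to 17 DAF were those of DN19219_c0_g1, from 10.4 FPKM at 17 DAF to 63.0 FPKM at 37 DAF, DN28184_c3_g2, from 62.5 FPKM to 272 FPKM at 27 DAF, and DN19907_c0_g1, from 33.5 FPKM to 127 FPKM at 27 DAF. In 12 members, 27 DAF was more than 1 above both 22 and 32 DAF and 37 DAF more than 1 above 32 DAF in abnormal fruits. Of the 2309 unigenes, 2.21% had these later steps. The count sets no condition on 17 DAF, where the members are high by the rule and the 2309 need not be. The rule asks for a low value at 22 DAF, which favours the step to 27 DAF in this count. Without the threshold, 32 members (29.9%) and 28.2% of the 2309 had this order of stages.

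A group of 8 members was listed at 0 in every other group. They were DN31423_c0_g1 with 192 FPKM in abnormal fruits at 17 DAF, DN28572_c0_g1 with 186 FPKM, DN34521_c0_g1 with 149 FPKM, DN48086_c0_g1 with 138 FPKM, DN45010_c0_g1 with 136 FPKM, DN54802_c0_g1 with 136 FPKM, DN31705_c0_g1 with 135 FPKM and DN16743_c0_g1 with 131 FPKM. A unigene found in 1 group only needs 120 FPKM there to reach a mean of 10, so that their levels are bounded from below by the rule. Unigenes of this kind were not particular to abnormal fruits at 17 DAF: there were 0 to 5 in each of the other 11 groups, with 5 in normal fruits at 27 DAF and 4 in abnormal fruits at 32 DAF. Of the 107, 80 were above 0 in all 12 groups. DN24788_c1_g5, singled out after its values were seen, was listed at 0 in all normal groups and had 25.4, 31.6 and 71.2 FPKM in abnormal fruits at 17, 27 and 37 DAF, with a listed 0 at the other 3 stages.

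Peaks of this size were also found at other stages. Among the 2309 unigenes, 58, 63 and 40 peaked by more than 2 over both neighbouring stages at 22, 27 and 32 DAF in abnormal fruits, which is 2.51%, 2.73% and 1.73%, compared with 4.63% at 17 DAF. In normal fruits the numbers were 7, 27, 44 and 35 at 17, 22, 27 and 32 DAF. In percent these are 0.303, 1.17, 1.91 and 1.52 of the 2309. Of the members, 14 peaked by more than 2 again at 27 DAF in abnormal fruits and 10 did so in normal fruits at that stage. With a threshold of 1, the numbers were 37 and 32 members, against 8.19% and 7.62% of the 2309. The peak at 27 DAF in abnormal fruits is measured over 22 DAF, which the rule used, so the 14 and the 37 are a description. The opposite course, a dip of more than 2 at 17 DAF in abnormal fruits, was met by 217 of the 2309 unigenes.

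**Figure D5:**
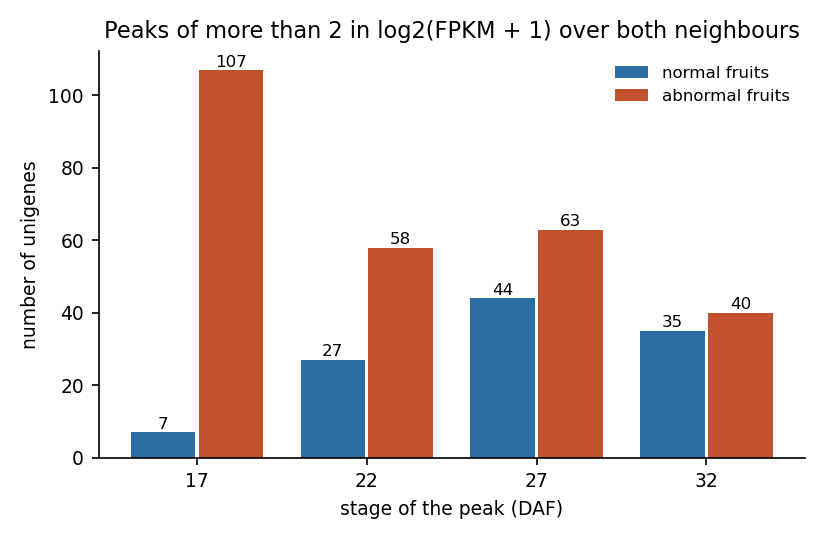
Number of unigenes past the minimum of 10 FPKM whose log2(FPKM + 1) exceeds both neighbouring stages by more than 2, at each inner stage in normal and abnormal fruits. The 107 at 17 DAF in abnormal fruits are the unigenes described here, and 7 unigenes peak at 17 DAF in normal fruits.

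Of the members, those closest to the threshold of 2 were DN27567_c0_g1 with a smaller rise of 2.01, DN2886_c0_g1 with 2.02 and PUB26 with 2.03. Just outside stood DN20871_c0_g2 with 29.1, 119 and 27.4 FPKM at the first 3 stages in abnormal fruits, DN18670_c0_g2 with 7.95, 52.5 and 12.5 FPKM (1.99) and DN15645_c0_g1 with 309, 1212 and 184 FPKM (1.97). All 3 of these were also higher in abnormal than in normal fruits at 17 DAF, and DN20871_c0_g2 had 10.9 FPKM in normal fruits there.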

How the data were processed

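FPKM values of 12 groups were analysed, 1 column per group. According to the methods, the authors aligned clean reads to their Trinity unigenes with Bowtie2, obtained read counts through RSEM, normalized these in DESeq2 and scaled them to effective length and library size as FPKM. The deposited FPKM columns are the authors' means over 3 replicates, and all 12 were used as deposited. Versions of these programs are not given in the sources used here. Groups follow the sample titles and the column names.

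Differences are in log2(FPKM + 1), with thresholds of 1 between groups and 2 for the peak. With 1 value per group no test was possible, so counts are set beside those over all unigenes averaging 10 FPKM or more. The pseudocount understates differences of weakly expressed unigenes. Depth behind single values is unknown. Members, lists and comparisons were chosen with earlier results of these data known. Named unigenes are all annotated members, the 5 highest and the 5 with the largest rise at 17 DAF in abnormal fruits, those nearest the threshold, those with extreme differences between fruit types, and those with a normal peak at 17 DAF or the highest later values. Names come from the primer list and from annotation tables used here in part, which named 754 of the listed unigenes. The 5 unigenes with the highest Pearson r to the median course are named as well. Alternatives were other pseudocounts, scalings, minimums and thresholds. Reverse primers were not printed because their direction was unsure. The selection code was run on simulated data with implanted peaks, which checks the code only and says nothing about the members. Python 3.11.15, numpy 2.4.6, pandas 2.3.3 and matplotlib 3.10.9 were used.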

Additional observations from a re-analysis of the deposited data

How the results depend on the processing

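The number of unigenes with the peak was 114 with a pseudocount of 0.1, 73 with a pseudocount of 5, 84 after scaling all columns to equal sums and 140 after median-of-ratios scaling, with 107, 73, 82 and 106 of the members among them. It was 340 without a minimum, 318 with a rise of more than 1 and 29 with a rise of more than 3. Members higher in abnormal fruits by more than 2 instead of 1 numbered 36, 1, 3, 0 and 4 at 12, 22, 27, 32 and 37 DAF. With the threshold of 1, a pseudocount of 5 gave 2, 8 and 6 such members at 22, 27 and 32 DAF, median-of-ratios scaling 16, 48 and 9, and scaling to equal sums 40 at 27 DAF. At 17 DAF the count was between 101 and 106 under these settings. With a threshold of 2, 42 members were lower at 37 than at 17 DAF in abnormal fruits. Without a minimum, an alternative chosen after seeing the data, 44.4% had the normal step from 17 to 27 DAF and 45.3% the abnormal step from 22 to 27 DAF. Peaks in abnormal fruits at 22, 27 and 32 DAF together numbered 161, and 291, 79 and 1095 with a minimum of 5, 20 and none, and 487 and 81 with a rise of more than 1 and 3. Peaks in normal fruits at 17 DAF numbered 11 with median-of-ratios scaling, 20, 2 and 179 with these minimums, and 41 and 4 with these rises. The cause of these shifts was not tested. No paired analysis was possible because the columns carry no replicate, and for the same reason no replicate could be left out.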

Other observations

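Unigenes outside the rule with the same course were found among those with smaller peaks. Over the 12 group values, the Pearson r with the median course of the 107 unigenes was highest for DN26941_c0_g1 (0.97), DN17157_c0_g1 (0.97), DN16946_c0_g1 (0.97), DN27865_c5_g1 (0.96) and DN18815_c0_g1 (0.96). The 12 points share the libraries and the normalization of all unigenes, so these values are a description. DN17157_c0_g1 had 25.4, 94.0, 17.6, 56.0, 48.1 and 28.1 FPKM in abnormal and 10.3, 10.5, 19.8, 34.5, 34.7 and 20.4 FPKM in normal fruits from 12 to 37 DAF. DN18815_c0_g1 had 195, 634, 232, 622, 445 and 385 FPKM in abnormal and 178, 144, 243, 448, 350 and 355 FPKM in normal fruits. Both had their lowest normal values at 12 and 17 DAF and their highest abnormal values at 17 and 27 DAF.

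The member DN27529_c3_g1, singled out after its values were seen, had 467 FPKM in normal fruits at 32 DAF and 46.3 FPKM in abnormal fruits at that stage, while at 17 DAF the order was reversed, with 10.7 FPKM in normal fruits and 121 FPKM in abnormal ones.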
